A study of Mus musculus with 20 samples.

Results

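MicroRNA genes of the mouse retina were followed through the probe sets of a gene expression array that carry the symbol of 1 microRNA gene. The array holds 298 such probe sets, for 296 genes, and 143 of them (141 genes) had a log2 intensity over 5 in at least 2 of 20 arrays; the members were chosen by this rule. The same rule was met by 16444 of all 21789 probe sets with 1 gene symbol. Intensity therefore chose the members, and their level alone is a description, not a finding. A further 61 probe sets carry several symbols that include a microRNA gene, and 7 carry the symbol of a microRNA host gene (ending in hg); neither kind was used.

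A microRNA gene is transcribed as a long primary transcript that folds into a hairpin. The nuclear enzyme Drosha cuts the hairpin free, Dicer cuts it again in the cytoplasm, and an Argonaute protein keeps 1 strand, the mature microRNA, which pairs through its seed with messenger RNAs and lowers their output. Many microRNA genes lie inside introns of other genes or in clusters that are transcribed together. In the retina, the cluster of miR-183, miR-96 and miR-182 is known for its high level in photoreceptors and, with miR-204 and miR-211, for a level that follows light. The arrays were hybridised with cRNA made from total RNA, so a probe set named for a microRNA gene may read its primary transcript, its hairpin or other RNA from the locus. Its value is not a measure of the mature microRNA.

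RNA came from adult C57BL/6 mice, 7 to 8 weeks old, that were light adapted for 6 h (450 lux) or dark adapted for 3 h (at most 0.4 lux); no group carries a genetic change. In each adaptation 5 tissues were measured. Besides whole retina, these were the layer of ganglion cells, the inner plexiform and inner nuclear layers, and the photoreceptor layer (outer nuclear layer with outer and inner segments). The layers were cut out by laser capture microscopy, and cRNA was labelled with biotin in a protocol of 2 cycles. Each of the 10 groups has 2 arrays, the labels tie no array to an animal, and p-values therefore reflect only how far these samples spread, possibly for technical reasons. In such bulk samples, fewer cells of a type and less RNA per cell cannot be told apart.

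Most marker lists followed their layer: all 5 rod and all 4 cone genes were higher in the photoreceptor layer than in the other layers, and all 7 ganglion cell genes were higher in the ganglion cell layer. Of 4 bipolar genes 3 were higher in the inner nuclear layer, and of 4 amacrine genes 3 were higher in the inner plexiform layer. In the inner nuclear layer 2 of 4 Müller glia genes, 0 of 2 horizontal cell genes and 0 of 4 amacrine genes were higher. In the inner plexiform layer 1 bipolar and 1 Müller glia gene were higher too. Across the members, both arrays of the light-adapted inner plexiform layer gave median correlations of 0.796 and 0.832 with arrays of the other groups, against 0.874 to 0.945 for the other 18 arrays. Over all probe sets replicate 2 of the light-adapted whole retina stood lowest at 0.720, beside 0.736 and 0.770 for that pair. Y-linked probe sets gave signal in 5 light-adapted arrays and in no dark-adapted one. These are photoreceptor layer 1, inner nuclear layer 1, ganglion cell layer 1 and 2, and whole retina 1. In the ganglion cell layer, adaptation and Y-linked signal therefore cannot be told apart. In the photoreceptor layer, inner nuclear layer and whole retina they are mixed in part, and no inner plexiform array has the signal.

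The mature sequences of the microRNA genes on which the results turn follow, from RefSeq (mouse, GRCm38.p6), 5′ to 3′. Capitals mark the seed, bases 2 to 8. Of the 298 probe sets, all matched a RefSeq gene by gene ID and 260 have a hairpin in that table. The first pair, miR-331 and miR-532, belong to the genes that stood highest in the inner plexiform layer with no overlap between arrays.
miR-331-3p: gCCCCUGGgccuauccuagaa
miR-532-3p: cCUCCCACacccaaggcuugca
The next come from 1 cluster, miR-23a, miR-27a and miR-24-2, whose probe sets moved in opposite directions in the same layer.
miR-23a-3p: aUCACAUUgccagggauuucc
miR-27a-3p: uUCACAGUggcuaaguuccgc
miR-24-3p: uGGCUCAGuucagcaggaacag
The following pairs share a seed within the pair, miR-132 with miR-212 and miR-25 with miR-92b.
miR-132-3p: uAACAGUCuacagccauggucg
miR-212-3p: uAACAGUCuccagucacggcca
miR-25-3p: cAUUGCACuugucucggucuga
miR-92b-3p: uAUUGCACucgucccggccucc
The next are each made from several gene copies, each with a probe set of its own: miR-138 from Mir138-1 and Mir138-2, miR-181b from Mir181b-1 and Mir181b-2, miR-218 from Mir218-1 and Mir218-2, and miR-680 from 3 genes.
miR-138-5p: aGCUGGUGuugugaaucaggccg
miR-181b-5p: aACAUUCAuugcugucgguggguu
miR-218-5p: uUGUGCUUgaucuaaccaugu
miR-680: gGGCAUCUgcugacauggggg
The last belong to the light-regulated genes of the retina, among which miR-204 and miR-211 share a seed and the others do not.
miR-182-5p: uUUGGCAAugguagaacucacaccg
miR-183-5p: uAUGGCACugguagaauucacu
miR-96-5p: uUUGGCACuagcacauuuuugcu
miR-204-5p: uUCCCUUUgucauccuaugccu
miR-211-5p: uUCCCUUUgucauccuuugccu

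Of the 155 microRNA probe sets outside the rule, 133 were over 5 in no array and 22 in 1 array. Among the 143 members, 80 were over 5 in all 20 arrays and 63 in only some, 16 of these in 2 to 4 arrays. The rule was met by 48.0% of microRNA probe sets, against 75.5% of all probe sets with 1 symbol and 58.3% of those for small nucleolar and Cajal body RNAs (35 of 60). The members nearest to the limit, by their second-highest array, were Mir221 at 5.06, Mir695 at 5.08 and Mir7-1 at 5.10. Just outside lay Mir196a-2 at 4.98, Mir652 at 4.94 and Mir500 at 4.91. The members' mean over 20 arrays ran from 3.48 to 9.51 with a median of 6.16, beside 5.86 for all probe sets past the rule. The 3 highest means were those of Mir680-2 (9.51, arrays from 9.13 to 9.94), Mir346 (9.25, from 8.95 to 9.56) and Mir667 (9.23, from 8.85 to 9.99). The order of intensities between probe sets also depends on the probes, so it is no order of expression.

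Whether a microRNA gene met the rule went with the base composition of its hairpin. Among the 87 hairpins poorest in G and C (28.4% to 43.9%), 10 probe sets or 11.5% met it. Among the next 86 (44.0% to 52.1%) 35 or 40.7% did, and among the 87 richest (52.1% to 69.2%) 74 or 85.1%. The median level in these 3 sets was 3.07, 3.95 and 6.24 in log2 intensity, where the floor of the data is 3. Across the 260 probe sets with a hairpin, the Spearman correlation of the level with the share of G and C was 0.77, and across the 119 members among them 0.56. These points share arrays, labelling and the probe design, and the probe sequences were not used here.

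**Figure D1:**
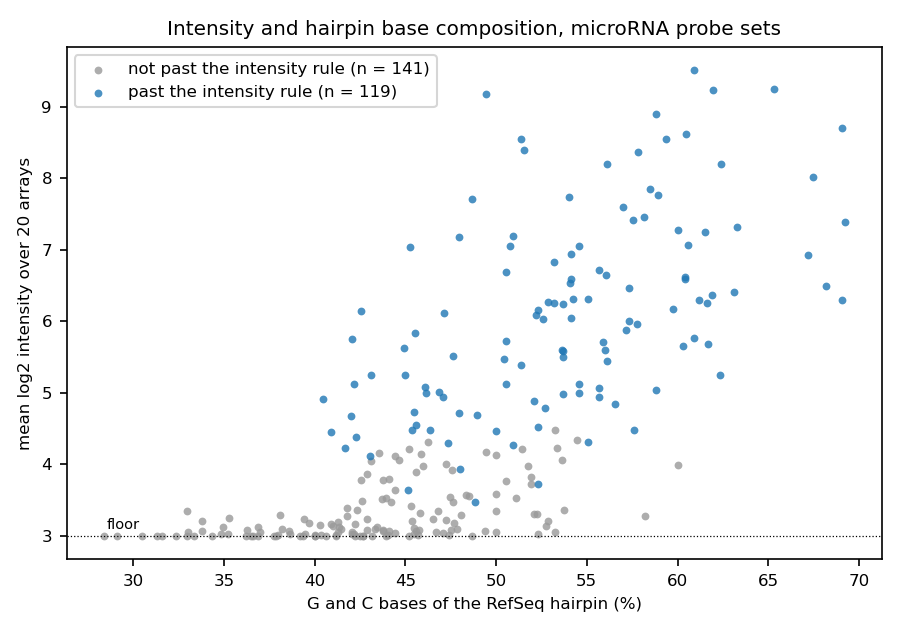
Each point is 1 of 260 microRNA probe sets with a RefSeq hairpin: the horizontal axis gives the share of G and C bases of the hairpin in percent, the vertical axis the mean log2 intensity over 20 arrays, with the 119 members in blue, the other 141 in grey and the floor of 3 as a dotted line. Under 40% of G and C all 36 points lie near the floor, at 3.35 or less, and over 55% 51 of 53 are members.

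How much a member varied between groups differed widely. The range of its 10 group means had a median of 1.14 on the log2 scale, against 0.93 over all probe sets past the rule and 0.91 over the 80 members that were over 5 in all arrays. The light-adapted inner plexiform layer held the highest of the 10 group means for 47 members (32.9%, against 27.1% of all probe sets) and the lowest for 38 (26.6%, against 21.4%). The whole retina held the lowest mean for 42 members in light (29.4%, against 23.3% of all probe sets) and 38 in dark adaptation (26.6%, against 19.1%). It held the highest for 4 members in each (2.80%, against 13.3% and 10.7%). The light-adapted inner nuclear layer held the highest for 30 members (21.0%, against 10.3%). The photoreceptor layer was the highest for 1 member in light and 4 in dark adaptation. Between the 2 arrays of a group, members differed by a median of 0.18 (dark-adapted whole retina) to 0.41 (light-adapted inner plexiform layer).

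**Figure D2:**
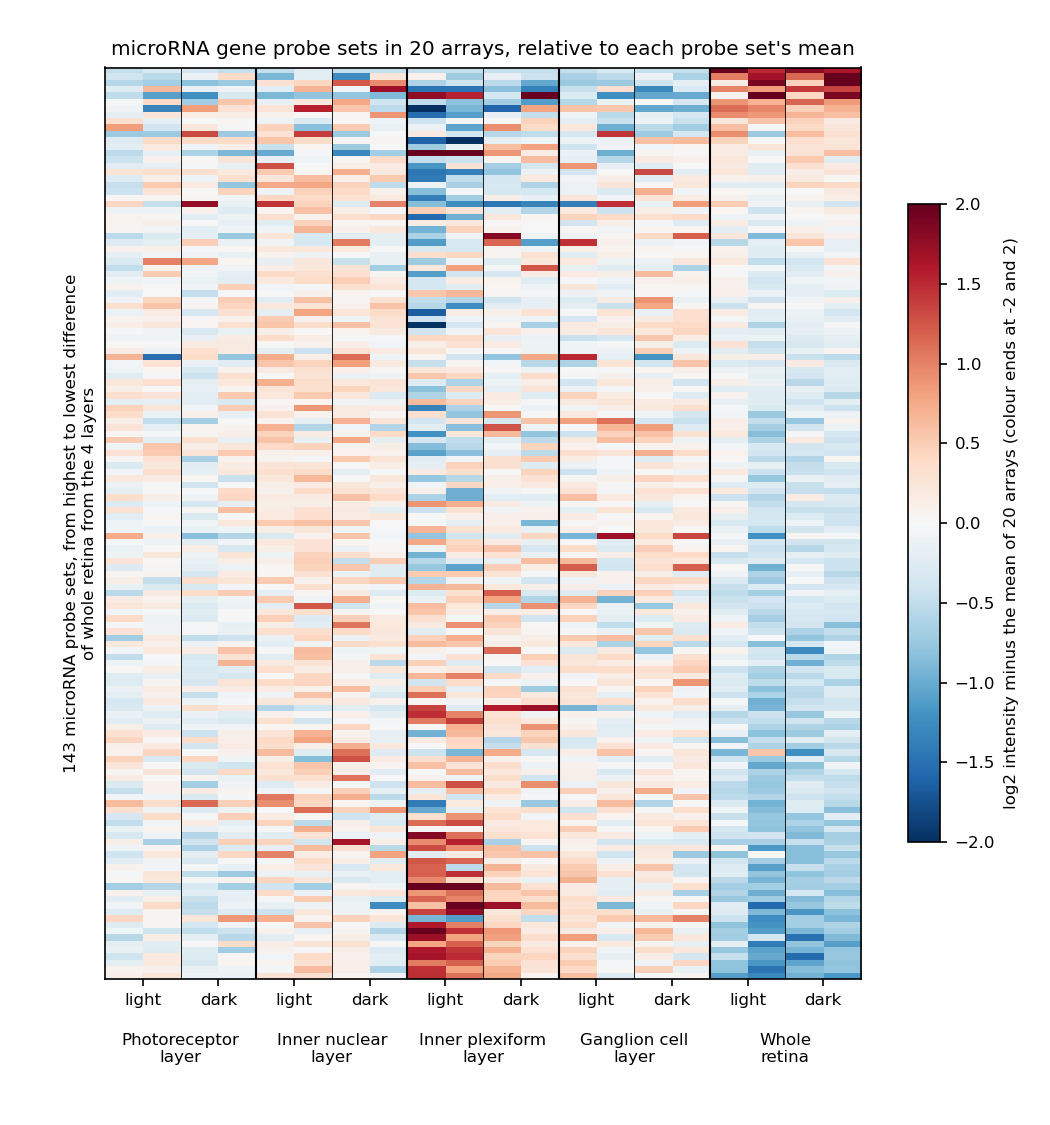
Each row is 1 of the 143 member probe sets, sorted by the difference of the whole retina from the 4 layers, and each column 1 of 20 arrays; colour gives the log2 intensity minus that row's mean, from blue (-2) to red (2). Both columns of the inner plexiform layer in light hold many deep red and deep blue cells, and most rows are blue in the 4 whole retina columns, with deep red in the top rows.

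In the inner plexiform layer, the synaptic layer between bipolar, amacrine and ganglion cells, 48 of the 143 members differed from the mean of the other 3 layers (limma, adjusted p under 0.05), 30 higher and 18 lower. That is 33.6%, beside 14.4% of all 16444 probe sets tested, of which 8.22% were higher and 6.22% lower. Of the 30 higher, 2 (Mir151 and Mir182) met the intensity rule only through this layer, and of the 18 lower, 4 met it only through the other 3 layers. With no intensity rule, 55 of all 298 microRNA probe sets were called, or 18.5%, beside 11% of 21789. The median difference of the members was 0.03, beside 0.00 over all probe sets, since the calls went both ways. Taken alone, the light-adapted arrays called 53 members and the dark-adapted arrays 0, as given further below. The pooled calls named below therefore do not stand for the dark-adapted layer on its own.

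Mir331 lies in Vezt and has no microRNA gene within 10 kb. Its log2 intensity was 7.27 and 6.87 in the light-adapted and 5.76 and 5.04 in the dark-adapted inner plexiform layer. The 12 arrays of the other 3 layers lay between 3.60 and 4.94. All 4 arrays of the layer were thus above all 12, by 1.87 ± 0.21 (SE) on the log2 scale between the means. Whole retina arrays were at 5.04 and 4.74 in light and 5.14 and 5.49 in dark adaptation. They overlap with the dark-adapted inner plexiform layer.

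Mir532 lies in the chloride channel gene Clcn5 on the X chromosome. Its arrays in the layer were at 5.29 and 6.95 in light and 6.41 and 5.32 in dark adaptation, against 3.43 to 5.10 in the other layers. The groups did not overlap, the means differed by 1.48 ± 0.33 (SE), and the difference was 1.52 within the light-adapted and 1.45 within the dark-adapted arrays. Whole retina arrays lay at 3.14 to 4.47. Mir331 and Mir532 were singled out for this pattern from earlier results on these arrays, so no test of it is given.

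The genes that hold this pair did not follow them. Vezt, which codes for an adherens junction protein, differed by 0.14 ± 0.16 (SE) in the inner plexiform layer, and Clcn5 by 0.03 ± 0.15; neither was called (limma, adjusted p = 0.59 and 0.91). Mir532 has 3 more microRNA genes of Clcn5 within 10 kb, all members; Mir500, further along Clcn5, did not meet the rule. None was called in the layer: Mir188 differed by 0.60 (limma, adjusted p = 0.093), Mir362 by -0.52 (0.084) and Mir501 by -0.04 (0.90). The pattern of Mir331 over the 10 group means was most like that of Zfpm2 (Pearson r = 0.93), Tmem229b (0.93), Hint2 (0.92), Gm10494 (0.92) and Eif1ad (0.92). Among microRNA probe sets it was most like Mir668 (0.86), Mir218-1 (0.80) and Mir151 (0.80). For Mir532 these were Ndufa7 (0.98), Recql5, Ntn1, Chst7 and Cebpa (0.96 each), and Mir129-1 (0.95), Mir138-2 (0.89) and Mir3107 (0.89). The correlations run over 10 groups and were picked as the highest of many.

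**Figure D3:**
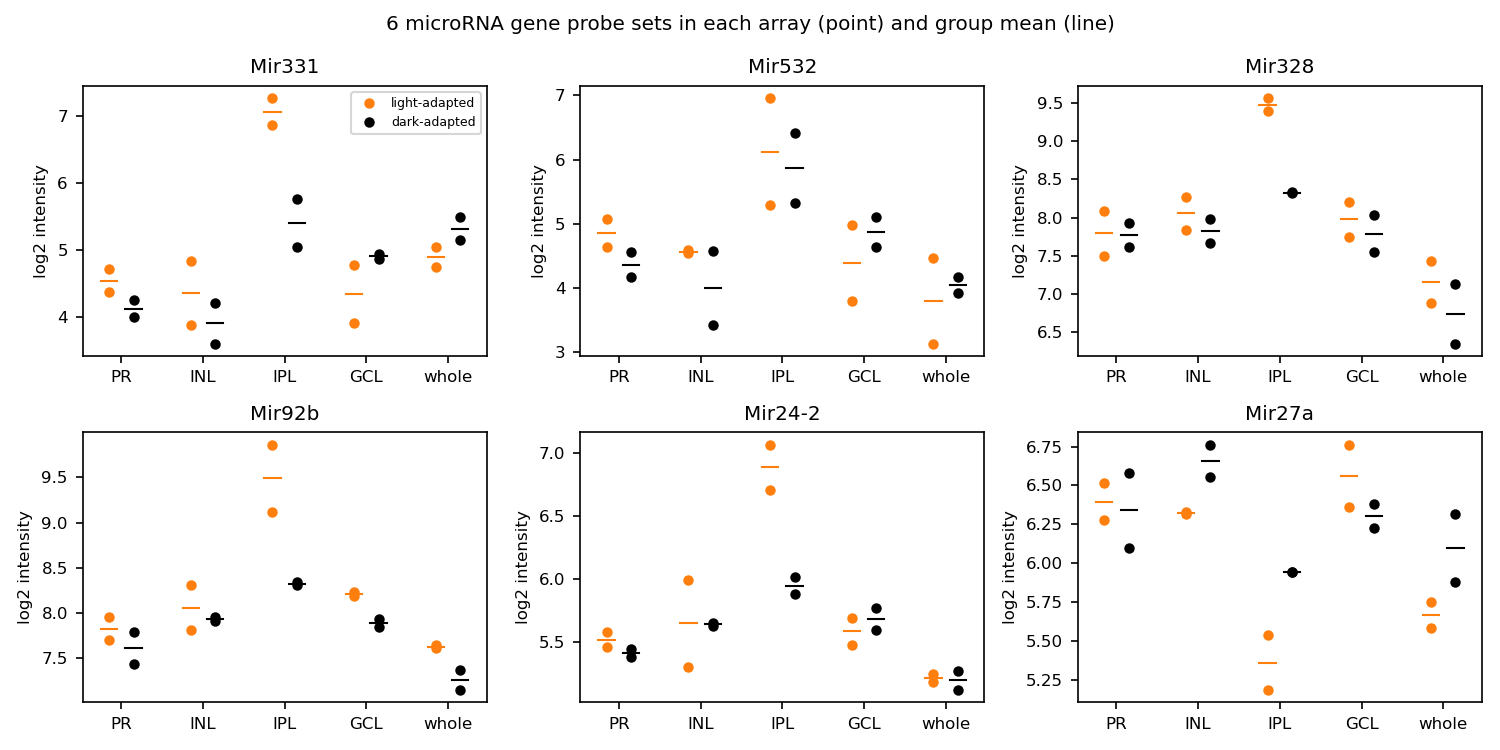
Log2 intensity of 6 microRNA probe sets in each array (points) with group means (lines), light-adapted in orange and dark-adapted in black, by tissue (PR photoreceptor, INL inner nuclear, IPL inner plexiform, GCL ganglion cell layer, and whole retina); each panel has its own axis, which does not start at 0. Mir331, Mir328, Mir92b and Mir24-2 peak in the light-adapted inner plexiform layer, Mir532 is high there in both adaptations, and Mir27a is lowest there.

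Other members rose in the inner plexiform layer with no overlap between arrays. Mir328 was at 9.56 and 9.39 in light and 8.33 and 8.32 in dark adaptation, against 7.49 to 8.28 in the other layers. It rose by 1.03 ± 0.17 (SE; limma, adjusted p = 0.0013). Mir92b, whose product shares its seed with miR-25, was at 9.86 and 9.12 in light and 8.34 and 8.31 in dark adaptation, against 7.43 to 8.31 elsewhere, which is lower than both before rounding. It rose by 0.99 ± 0.13 (limma, adjusted p = 0.00039). Mir191 rose by 0.76 ± 0.16 (limma, adjusted p = 0.0055), with its neighbour Mir425 in the gene Dalrd3 (0.74 ± 0.13, adjusted p = 0.0025). Dalrd3 itself was not called (0.33 ± 0.12, adjusted p = 0.068). The calls of Mir328, Mir92b and Mir191 were each lost in some alternative processings or sets of arrays. The lowest differences among these were 0.46, 0.40 and 0.51.

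Mir212 and its neighbour Mir132, a pair known for induction by neuronal activity, rose together. Mir212 was at 9.0 and 8.81 in the light-adapted and 8.08 and 7.68 in the dark-adapted layer, against 6.70 to 7.83 elsewhere, a difference of 1.04 ± 0.13 (SE; limma, adjusted p = 0.00027). Mir132 differed by 0.94 ± 0.24 (adjusted p = 0.015). In both, at least 1 array of the layer lies within the range of the other layers. Mir138-2, chosen here after its values were seen, rose by 1.24 ± 0.18 (limma, adjusted p = 0.00065). Nup93, a nuclear pore gene that holds it, fell by 0.57 ± 0.16 (adjusted p = 0.027).

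Among the members that fell in the layer, Mir199a-1, Mir34b and Mir27a did so with no overlap. The share of all probe sets without overlap is not given, here or for the other comparisons. Lack of overlap therefore only picks which members are named. Mir199a-1, a gene of mesenchymal and vascular cells in many tissues, was at 4.30 and 5.94 in light and 6.31 and 5.62 in dark adaptation, against 6.31 to 6.85 elsewhere, all higher before rounding. It fell by 1.02 ± 0.22 (SE; limma, adjusted p = 0.0070). Mir34b, of the family that p53 controls, fell by 0.95 ± 0.13 (limma, adjusted p = 0.00041). Mir27a was at 5.54 and 5.19 in light and 5.94 and 5.95 in dark adaptation, against 6.10 to 6.76 elsewhere, and fell by 0.78 ± 0.13 (adjusted p = 0.0017). The calls of Mir199a-1, Mir34b and Mir27a were also each lost in some alternative processings or sets of arrays. The differences nearest to no change were -0.60, -0.65 and -0.49.

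Mir27a lies with Mir23a and Mir24-2 in a cluster known to be transcribed as 1 primary RNA, and the 3 probe sets did not move together. Mir23a fell by 0.59 ± 0.17 (SE; limma, adjusted p = 0.028), while Mir24-2 rose by 0.84 ± 0.13 (adjusted p = 0.0011). Mir24-2 stood at 6.71 and 7.07 in the light-adapted layer and at 6.02 and 5.88 in the dark-adapted one, against 5.30 to 6.00 in the other layers. Their hairpins hold 56.0% (Mir23a), 59.8% (Mir27a) and 61.7% (Mir24-2) of G and C. Among other neighbours, Mir341 rose by 0.32 ± 0.09 (adjusted p = 0.026), and Mir370, beside it in the long noncoding RNA gene Rian, was at 4.43 against 5.19. Mir370 met the rule only through the other layers, so its lower level was built into its choice. It is given without a test, and the pair is not counted as a split. Mir130b and Mir301b, neighbours of 1 cluster, both fell, by 0.76 ± 0.17 and 0.65 ± 0.17 (adjusted p = 0.0080 and 0.020). In all, 50 members lie in 17 clusters of at least 2 members.

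The difference of the inner plexiform layer was called in light adaptation only when each adaptation was taken alone. In light 53 members passed, beside 16.6% of all probe sets, and in dark 0 members (limma, 29 at an unadjusted p under 0.05), beside 0.0608%. A test of the difference between these 2 effects, chosen after the values were seen, called 3 members, beside 0.371% of all probe sets. Mir143 was 1.97 lower in light and 0.47 lower in dark adaptation, a difference of -1.5 ± 0.26 (SE; limma, adjusted p = 0.030). Mir680-1 was 1.48 lower in light and 0.05 lower in dark adaptation, a difference of -1.43 ± 0.22 (adjusted p = 0.020). The third, Mir151, met the intensity rule only through the 2 light-adapted arrays of this layer, at 6.50 and 5.77 against 3.00 to 4.31 in the other 18. For Mir331 the difference between the effects was 1.57 ± 0.43 and for Mir532 0.06 ± 0.66, given without a test.

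**Figure D4:**
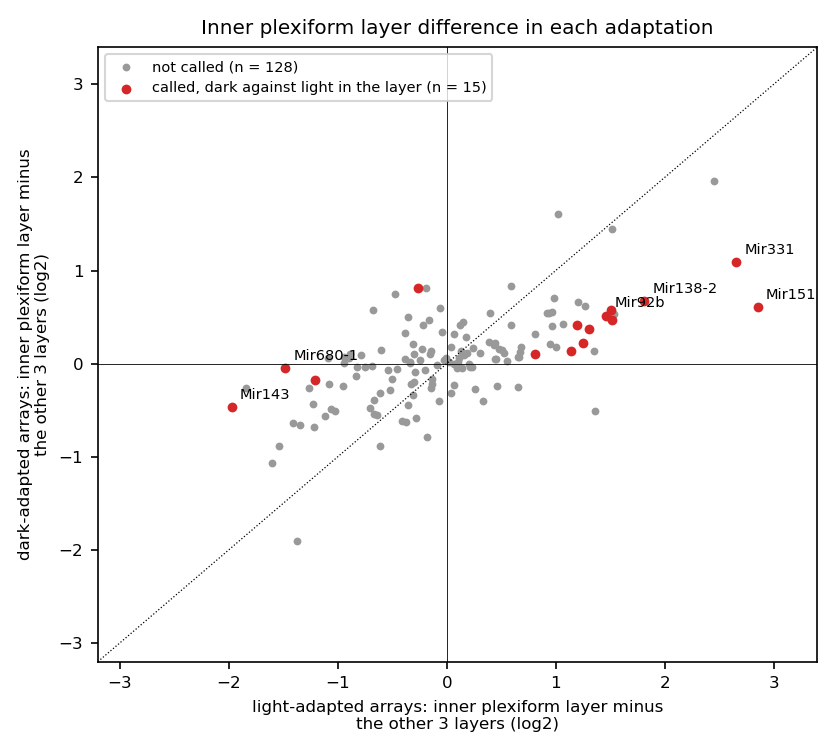
Each point is 1 of the 143 members: the horizontal axis gives the log2 difference of the inner plexiform layer from the other 3 layers in the light-adapted arrays, the vertical axis the same in the dark-adapted arrays, with the 15 members called in dark against light adaptation of the layer in red and a dotted line of equal values. The points spread further along the horizontal than along the vertical axis, and Mir331 lies at 2.65 and 1.09.

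Dark against light adaptation was called for members in the inner plexiform layer and in no other tissue. There 15 of 143 members passed (limma, adjusted p under 0.05), beside 2.23% of all probe sets, 4 higher and 11 lower in dark adaptation (1.08% and 1.14% of all). In each of the 15 the 2 dark-adapted arrays did not overlap with the 2 light-adapted ones. With 2 arrays a side this follows closely from the call itself and adds no support to it. Higher in dark adaptation were Mir143 (1.71 ± 0.23, SE, adjusted p = 0.0047), Mir680-1 (1.39 ± 0.19, 0.0047), Mir6516 (1.12 ± 0.26, 0.040) and Mir680-3 (1.01 ± 0.20, 0.020). Mir143, a gene of smooth muscle and pericytes, was at 4.78 and 4.34 in light and 6.23 and 6.32 in dark adaptation, and between 6.14 and 7.03 in the other 16 arrays.

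Lower in dark adaptation were Mir138-2 by 1.25 ± 0.32, Mir615 by 1.25 ± 0.26 and Mir92b by 1.17 ± 0.23 (SE; limma, adjusted p of 0.049, 0.023 and 0.019). Mir331 was also lower, with a mean of 5.40 in dark against 7.07 in light adaptation. It is among the 15, but is given without a test, since it was singled out for its level in this layer. Mir615 was at 8.17 and 8.58 in light and 7.02 and 7.24 in dark adaptation, and at 5.66 to 7.19 in the other 16 arrays. Mir425 fell by 1.13 ± 0.23 (adjusted p = 0.023) together with its holding gene Dalrd3 (0.99 ± 0.20, adjusted p = 0.021). This was the 1 pair of the 40 with a tested holding gene in which both were called in this comparison. Mir151 was also lower, and is given without a test because of the rule. The 5 others that fell were Mir326, Mir212, Mir483, Mir24-2 and Mir139, by 0.77 to 1.14. Of the 33 tested cell type markers, 2 were called in this comparison (6.06%, beside 2.23% of all probe sets). These were Rlbp1 of Müller glia and Thy1 of ganglion cells, both higher in dark adaptation, where 11 of the 15 members were lower. The mean log2 intensity of the 4 Müller glia genes was 6.21 and 6.85 in the light-adapted and 7.36 and 7.85 in the dark-adapted layer. Other lists had higher means in dark adaptation too: horizontal (5.29 in light, 6.04 in dark), ganglion (5.39, 5.99), bipolar (5.70, 6.10), amacrine (6.55, 6.87) and cone (5.22, 5.44). Lower in dark were the rod (6.65, 6.52) and pigment epithelium lists (4.84, 4.60). The part of these markers in the result was not tested.

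The count of 15 fell to 2 without replicate 2 of the dark-adapted inner plexiform layer, to 4 without replicate 1 of the light-adapted one, and to 9 without either dark-adapted whole retina array. Without the 5 arrays with Y-linked signal it was 6, and with a block for replicate number it was higher, as given at the end. In the other tissues no member was called in dark against light adaptation (limma). At an unadjusted p under 0.05 there was 1 in whole retina and 1 in the photoreceptor layer, with 4 in the inner nuclear and 5 in the ganglion cell layer. Of all probe sets, 0.0182%, 0.0426%, 0% and 0% were called in these tissues. Averaged over the 5 tissues, 0 members were called and 27 had an unadjusted p under 0.05, beside 0.0122% called. An F test of whether the dark effect differs between the 5 tissues called 0 members, with 20 at an unadjusted p under 0.05, beside 0.0243% called. With the replicate block this count was not 0.

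In the photoreceptor layer 16 members differed from the other 3 layers, 1 higher and 15 lower, or 11.2% beside 13.2% of all probe sets (limma; 7.72% higher and 5.51% lower). Mir341 was lower with no overlap between arrays, by 0.38 ± 0.09 (SE, limma, adjusted p = 0.0095). Of the 15 lower members 2, Mir151 and Mir196b, met the rule only through the other layers. The 15 hold 11 with a hairpin, whose median share of G and C was 58.9%. The count was 5 when the inner plexiform layer in light, part of the other side here, was left out, and 3 without the arrays with Y-linked signal. It was 6 without either light-adapted photoreceptor array, and 3 and 7 without the dark-adapted ones.

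In the inner nuclear layer, which holds the bipolar, amacrine, horizontal and Müller cell bodies, 1 member was called, beside 0.687% of all probe sets. Mir181b-2 was at 5.90 and 6.04 in light and 6.85 and 6.56 in dark adaptation, against 4.59 to 5.44 in the other layers. The arrays did not overlap, and the difference was 1.34 ± 0.27 (SE; limma, adjusted p = 0.031). Its neighbour Mir181a-2 differed by 0.19 (adjusted p = 0.81), and Mir181b-1, which gives the same mature sequence, by 0.89 (adjusted p = 0.40). The call was lost without any 1 of 7 arrays, all of the photoreceptor or inner nuclear layer. With a block for replicate number more members were called in the inner nuclear layer. In the ganglion cell layer 1 member was called, beside 1.87% of all probe sets. This was Mir680-1, higher by 0.49 ± 0.11 (adjusted p = 0.029), whose other side includes the low values of the inner plexiform layer in light, 6.81 and 7.42. No member was called there without any 1 of 7 arrays, 3 of them from the ganglion cell layer itself.

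The whole retina differed from the mean of the 4 layers in 78 members, or 54.5% beside 47.8% of all probe sets (limma). Of these, 10 were higher (20.7% of all probe sets were) and 68 lower (27.1% of all were). The median difference was -0.37 for the members and -0.17 over all probe sets. Of the 68 lower members 19 met the rule only through the layers, and of the 10 higher 2 (Mir301 and Mir7-1) only through the whole retina. With no intensity rule 86 of 298 microRNA probe sets were called, or 28.9% beside 38.8% of 21789. The whole retina differs from the layers in handling as well as in cells, and the dissection and the tissue cannot be told apart. Without replicate 2 of the light-adapted whole retina, 40 members were called.

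Members from the far end of each side with a hairpin in RefSeq (GRCm38.p6) are shown with every G and C in capitals, 5′ to 3′, since the called sets differ in base composition. The first pair was lower in the whole retina and the second higher.
Mir219a-1: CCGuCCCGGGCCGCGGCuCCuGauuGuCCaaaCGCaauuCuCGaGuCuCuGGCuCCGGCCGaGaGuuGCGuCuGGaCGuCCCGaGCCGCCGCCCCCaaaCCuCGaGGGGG
Mir212: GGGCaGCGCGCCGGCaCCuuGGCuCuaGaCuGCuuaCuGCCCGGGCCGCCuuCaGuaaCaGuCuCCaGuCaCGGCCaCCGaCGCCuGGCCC
Mir301: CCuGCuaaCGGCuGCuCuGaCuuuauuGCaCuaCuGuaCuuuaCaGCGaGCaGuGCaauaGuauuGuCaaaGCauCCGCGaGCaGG
Mir181b-2: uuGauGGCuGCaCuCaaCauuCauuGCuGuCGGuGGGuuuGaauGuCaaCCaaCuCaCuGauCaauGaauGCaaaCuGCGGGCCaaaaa
Their shares of G and C are 69.1%, 69.2%, 48.8% and 44.9%. Over the called members with a hairpin, the median share was 55.8% in 56 lower members and 45.2% in 6 higher ones. No member from the set of hairpins richest in G and C was higher in the whole retina, while 43 of 74 were lower. Of all called members there, 19 of 68 lower and 2 of 10 higher met the rule only through their higher side. The higher ones, Mir301 and Mir7-1, both have a hairpin and so make up 2 of the 6 behind that median. Members that met the rule in this way were not left out of these medians and counts, which are a description only. In the inner plexiform layer, 22 higher members had a median of 58.1% and 15 lower ones 53.6%. The same limit holds for 2 of the 30 higher and 4 of the 18 lower members called in that layer. Over the 119 members with a hairpin, the Spearman correlation of the share with the difference was 0.35 in the inner plexiform layer and -0.28 in the whole retina. The part of base composition in either result was not tested.

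Mir124a-2 led the members that were higher in the whole retina and met the rule without it. Its product, miR-124, is the abundant microRNA of neurons. It was at 6.81 and 7.47 in light and 6.94 and 7.94 in dark adaptation, against 4.52 to 6.16 in the 16 layer arrays, with no overlap and a difference of 1.88 ± 0.25 (SE; limma, adjusted p = 4.1e-05). Mir301 stood at 5.49, 4.98, 5.29 and 5.11 in the whole retina and at 3.00 to 3.26 in the layers, where 12 of 16 arrays were at the floor. It met the rule only through the whole retina, so no test is given. Mir181b-2 was higher by 1.43 ± 0.26 (adjusted p = 0.00048) and Mir181b-1 by 1.02 ± 0.36 (adjusted p = 0.028), while Mir181c and Mir181d of the same seed were lower by 0.47 ± 0.18 and 0.46 ± 0.10 (adjusted p = 0.044 and 0.0016).

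The members furthest below the layers with no overlap were Mir219a-1, Mir187, Mir99b, Mir328 and Mir212. Mir219a-1, whose product is known from oligodendrocytes, was at 5.20 and 5.01 in light and 5.35 and 5.14 in dark adaptation, against 6.04 to 7.78 in the layers. It fell by 1.40 ± 0.15 (SE; limma, adjusted p = 9.3e-06). Mir187 fell by 1.23 ± 0.18, Mir99b by 1.20 ± 0.14, Mir328 by 1.18 ± 0.16 and Mir212 by 1.11 ± 0.13 (adjusted p at most 8.8e-05). Both neighbours of Mir99b were lower too. Mir125a fell by 0.61 (adjusted p = 0.0056), and Mirlet7e, which met the rule only through the layers, was at 4.63 against 5.40. Mir219a-1, Mir187, Mir99b, Mir328 and Mir212 were also all higher in the inner plexiform layer, whose arrays are part of the other side here.

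Of the members, 54 lie in a gene on the same strand. For 45 pairs the holding gene has a probe set here, and in 40 of them it was tested. In the whole retina the microRNA was called in 21 pairs and the holding gene in 26, where 47.8% of all probe sets were called. Both were called in 11 pairs, 9 of them in the same direction. On the high side these were Mir103-2 (1.43) in the pantothenate kinase gene Pank2 (0.61 ± 0.21), Mir218-1 (1.41) in the guidance gene Slit2 (1.73 ± 0.26), Mir301 in Ska2 (0.77 ± 0.18) and Mir7-1 in the RNA-binding gene Hnrnpk (1.71 ± 0.38). On the low side Mir25 (-0.82) and Mir93 (-0.62) lie in the replication gene Mcm7 (-0.55 ± 0.17). The other low pairs were Mir338 in Aatk, Mir449a in Cdc20b and Mir483 in Igf2. Of the 11, Mir301, Mir7-1 and Mir449a met the rule only through their higher side. In the opposite direction stood Mir138-2 (-1.05) with Nup93 (0.43 ± 0.16) and Mir341 (-0.31) with Rian (1.11 ± 0.30). In the inner plexiform layer the microRNA was called in 15 pairs and the holding gene in 5, where 14.4% of all probe sets were called. Both were called in 2 pairs, Mir138-2 with Nup93 and Mir697 with Sf3a3, and in both the signs were opposite. Pairs that share a holding gene are not independent of each other. With so many calls in the whole retina, some pairs have both called without any link, and a link was not tested.

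**Figure D5:**
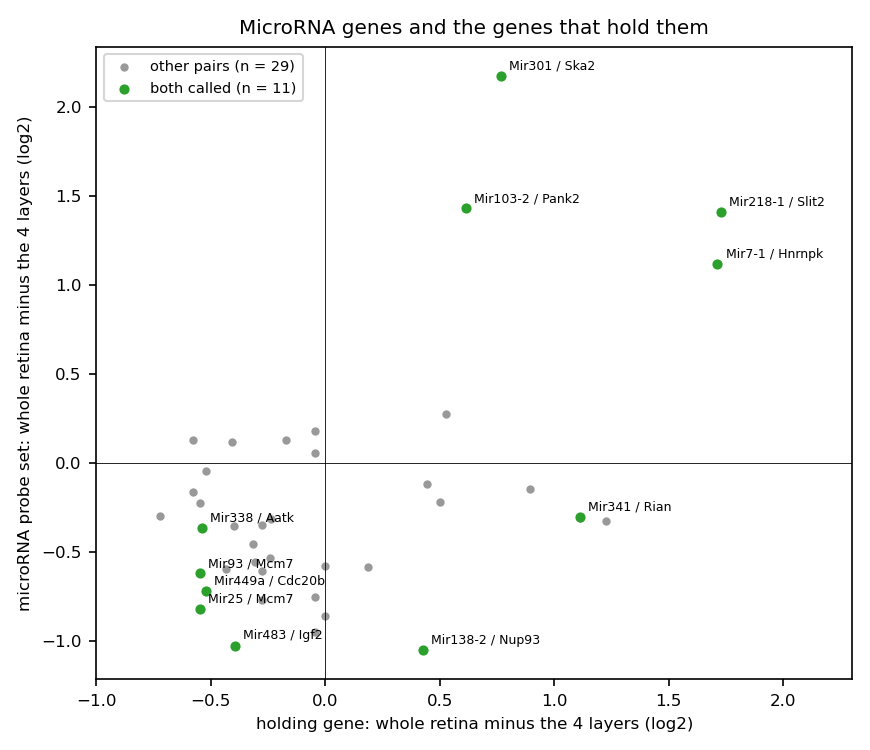
Each point is 1 of 40 pairs of a microRNA probe set and the gene that holds it on the same strand: the horizontal axis gives the log2 difference of the whole retina from the 4 layers for the holding gene, the vertical axis that of the microRNA probe set, with the 11 pairs in which both were called in green and named. Of these, 9 lie in the quadrants of equal sign, 4 above and 5 below 0.

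Of the light-regulated genes Mir182, Mir183, Mir96, Mir204 and Mir211, 3 met the intensity rule. Mir183 was at or near the floor in all arrays (3.00 to 3.14), and Mir204 ran from 3.00 to 4.29. Mir182 was at 5.27 and 3.68 in the light-adapted and 5.51 and 5.66 in the dark-adapted inner plexiform layer, and at 3.00 to 4.29 elsewhere. It met the rule only through that layer and is given without a test. Mir96 was over 5 in 2 arrays, 1 of the dark-adapted inner plexiform layer (6.09) and 1 of the dark-adapted ganglion cell layer (5.46). Mir211, in the bipolar cell channel gene Trpm1, lay between 6.94 and 7.88 in all 20 arrays and was called in no comparison, while Trpm1 was higher in the whole retina by 1.23 ± 0.14 (SE; limma). None of the 3 was called in dark against light adaptation of any tissue. For photoreceptors, where this cluster is known to be abundant as mature microRNA, Mir182 was at 3.64 to 4.29 and Mir96 at 3.52 to 4.09.

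Other microRNA genes known from the retina were listed under 50 symbols. The Mir124 genes stand there under old and new names, beside the host gene Mir124-2hg. Of the 50 symbols 39 have a probe set here and 19 were tested. In the whole retina 6 were higher and 8 lower, or 73.7% called beside 47.8% of all probe sets. Of these Mir7-1 on the high side and Mir132, Mirlet7e, Mir7b, Mir9-1 and Mir184 on the low side met the rule only through their higher side. In the inner plexiform layer 2 were higher and 3 lower, or 26.3% beside 14.4%. Median differences in these comparisons were -0.31 and -0.05, beside -0.17 and 0.00 over all probe sets. Mir132 and Mir212 were the pair higher in the inner plexiform layer; Mir103-2, Mir184 and Mir7b were the lower ones, of which the last 2 met the rule only through the other layers.

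Among the genes that make and use microRNAs, more were higher than lower in the whole retina. Of 36 such genes all have a probe set, and 34 were tested. In the whole retina 23 were higher and 1 lower than the layers, beside 20.7% higher and 27.1% lower of all probe sets. Their median difference was 0.65, beside -0.17 over all probe sets. The lean was not particular to them: of 33 tested cell type markers 20 were higher and 3 lower, with a median of 0.73. Of 35 small nucleolar and Cajal body RNA probe sets 10 were higher and 5 lower (median 0.26). Dissection and tissue cannot be told apart here either. Of the processing genes 9 of 11 were higher, led by Dicer1 (1.71 ± 0.27, SE; limma, adjusted p = 0.00017), Ddx17, a helicase of the Drosha complex (1.66 ± 0.24), and Ncbp1 (1.55 ± 0.14). Drosha rose by 1.02 ± 0.23. Of the effector genes 6 of 10 were higher, among them the Argonaute gene Ago3 (1.58 ± 0.18). Of the turnover genes 8 of 13 were higher, with the uridylyltransferase gene Tut4 (2.05 ± 0.26), Pnpt1 (2.05 ± 0.25) and the exonuclease gene Xrn2 (1.73 ± 0.24) at the top. Lin28a, which blocks let-7 processing, was lower by 0.36 ± 0.14 (adjusted p = 0.047).

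In the photoreceptor layer 4 of the 34 pathway genes were higher (7.72% of all probe sets were), the helicase gene Ddx6 by 2.14 ± 0.42, Dicer1 by 1.09 ± 0.28, Ncbp1 by 0.56 ± 0.15 and Tnrc6b by 0.45 ± 0.12. The RNA editing gene Adarb1 was the 1 of the 34 that was lower there (5.51% of all probe sets were), by 0.66 ± 0.14 (SE, limma, adjusted p = 0.0055). In the inner plexiform layer 0 of the 34 were higher and 2 lower, or 5.88% beside 6.22% of all probe sets lower. These were Pnpt1, lower by 0.87 ± 0.26, and Ncbp1, lower by 0.60 ± 0.15. A count so near the share of all probe sets is no result about the pathway. None of the 34 was called in dark against light adaptation of any tissue.

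Copies of 1 microRNA shared a pattern in some cases and not in others. Mir680-1, Mir680-2 and Mir680-3, on different chromosomes, give the same mature sequence. Hairpins of Mir680-1 and Mir680-2 are identical at 82.8% of aligned positions, and those of Mir680-1 and Mir680-3 at 43.5%. In the light-adapted inner plexiform layer Mir680-1 was at 6.81 and 7.42 and Mir680-3 at 7.81 and 8.48, below all other arrays (at least 8.15 and 9.01). Mir680-2 stood at 9.13 and 9.42, within the range of the others (9.19 to 9.94) for 1 array. Of Mir138-1 and Mir138-2, 49.5% identical, Mir138-2 was called in the inner plexiform layer and Mir138-1 was not; the difference between them was not tested. Mir138-1 was at 6.66 to 7.40 there and 6.92 to 8.15 in the other layers. The gene Mir713 has 3 probe sets, which disagreed in that layer: 1 was lower by 1.21 ± 0.22 (SE; limma, adjusted p = 0.0024), and the others were not called. Probe sets of near copies can also read each other's RNA.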

How the data were processed

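Total RNA from 20 samples was measured on Affymetrix gene arrays. The authors processed the arrays with GCRMA, per the submitters' processing notes (version not given in the sources used here); the deposited values are intensities, 1 per probe set and array, and were taken as linear from their range. GCRMA corrects background by probe sequence, normalizes between arrays and summarizes probes, so low values depend on its background model. A floor of 8 was set on intensities before log2 (a log2 floor of 3). Names come from the platform's annotation and gene IDs, neighbours, holding genes and sequences from RefSeq tables (GRCm38.p6); no positions are printed, since the build of the platform table is not given in the sources used here.

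A single linear model in limma 3.58.1 (R 4.3.3), with 10 group means, an intensity trend and 10 residual degrees of freedom covered all 16444 probe sets with 1 symbol over log2 5 in at least 2 arrays. Two-sided p-values were adjusted by Benjamini-Hochberg within each comparison over all of them, with a threshold of 0.05. In data simulated for the inner plexiform comparison (16444 probe sets), 189 of 200 probe sets changed by 1.5 on the log2 scale were recovered, with 8 false calls. That change is larger than the median of the members called in this layer, 0.78 for the higher and -0.80 for the lower ones. The recovery therefore does not measure how well smaller changes, or dark against light adaptation within a tissue, are found. Members and lists (light-regulated, other retinal, pathway and marker genes) were chosen with earlier results of these data known. Named members are Mir331 and Mir532, the light-regulated list, the largest called differences with no overlap (up to 5 a direction), the highest intensities, those nearest the limit, and their neighbours and holding genes; others were chosen after their values were seen. Hairpins were aligned with Biopython 1.88. Alternatives were quantile normalization, log2 of the intensity plus 16, no filter or a filter at 7, 1 probe set per gene, no trend, a replicate block, and leaving out arrays. No array gives an interval of its own, and the number of arrays limits the precision.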

Additional observations from a re-analysis of the deposited data

Results flagged for a closer look

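The difference of the inner plexiform layer from the other 3 layers was itself different in light and dark adaptation for Mir143, by -1.5 on the log2 scale, and for Mir680-1, by -1.43 (limma, a test chosen after the values were seen). Both were lower in the light-adapted layer, Mir143 by 1.97 and Mir680-1 by 1.48, and closer to the other layers in the dark-adapted one. In both, the 2 light-adapted arrays of the layer were the lowest of all 20. Groups of 2 arrays are too small for a check of single outlying samples.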

How the results depend on the processing

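Counts of called members were recomputed for 12 comparisons (limma). Scoring 1 probe set per gene, or log2 of the intensity plus 16, moved none of the 12 counts by over 1.5 times. Quantile normalization gave 25 members in the photoreceptor layer (16 as reported). With no filter the inner nuclear layer had 0 and the ganglion cell layer 2. A filter at log2 over 7 gave 27 in the inner plexiform layer and 45 in the whole retina, with fewer probe sets tested. With no intensity trend the ganglion cell layer had 0. Without the arrays with Y-linked signal there were 3, 0 and 0 in the photoreceptor, inner nuclear and ganglion cell layers, and 6 in dark against light adaptation of the inner plexiform layer. With the inner plexiform layer in light left out there were 5, 0 and 1 in the photoreceptor, inner nuclear and inner plexiform layers. Within the light-adapted arrays the photoreceptor layer had 4 and the whole retina 47. Within the dark-adapted arrays the photoreceptor layer had 1, the inner nuclear, inner plexiform and ganglion cell layers 0 each, and the whole retina 28. Mir331 differed in the whole retina by 0.27 as reported and by -0.19 within the light-adapted arrays; neither was called. Unless a smaller set of arrays or probe sets is named, the cause was not tested.

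Replicate numbers were not taken as pairs, since not every correlation between same-numbered arrays' deviations was over 0.1. That limit was a choice, and a part shared by same-numbered arrays is not excluded by it. All 45 were positive (0.0052 to 0.48, median 0.13) and 35 were over 0.1. With a replicate block there were 3 members in the inner nuclear layer, 25 in dark against light adaptation of the inner plexiform layer, and 2 in the F test; the other 9 counts stayed within 1.5 times.

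Leaving out each array in turn gave 3 to 19 members in the photoreceptor, 0 to 3 in the inner nuclear, and 37 to 53 in the inner plexiform layer. In the ganglion cell layer 0 to 1 passed. The whole retina had 40 to 85, with 2 to 17 in dark against light adaptation of the inner plexiform layer, 0 to 1 in the F test and 0 in the other dark against light comparisons. The photoreceptor count was 6 without either light-adapted photoreceptor array, 3 without replicate 1 and 7 without replicate 2 of the dark-adapted ones.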
